A study of Mus musculus with 4 samples.

Results

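The 35 genes examined here encode proteins that make up, acidify or supply the lysosome and the phagosome. They were taken as a named list of 35 out of 21755 protein-coding genes and comprise 10 lysosomal proteases, 8 hydrolases of sugars or lipids, 9 membrane, transport and accessory proteins, 5 subunits of the proton pump (V-ATPase) and the transcription factors Tfeb, Tfe3 and Mitf. Each gene was read over a window, its mm10 GENCODE M21 gene body with 5 kb added on each side. ATAC-seq, in which the Tn5 transposase inserts adapters into open chromatin, was performed on BMDMs. These are macrophages that were differentiated from mouse bone marrow cells over 6 to 8 days in L929-conditioned medium. The range is that of the study's cultures in general, and the study names a single culture day for its ATAC-seq. WT BMDMs came from H3f3a fl/fl H3f3b fl/fl mice without Cre, and H3.3cKO BMDMs (cKO below) from H3f3a fl/fl H3f3b fl/fl mice that also carried LysM cre/cre, with 2 libraries for each genotype. The mice were young adults on a C57BL/6 background per the study's methods. Both genotypes carry the floxed alleles of the genes for histone H3.3. Cre is expressed in myeloid cells from the Lyz2 (LysM) locus in the cKO alone, so that the loss of H3.3 and the Cre allele cannot be told apart. The study describes the deletion of H3f3b as variable between preparations.

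Macrophages digest what they engulf in phagosomes that fuse with lysosomes. The V-ATPase pumps protons into these compartments, and the low pH activates cathepsins and other acid hydrolases that cut proteins, sugars and lipids. Tfeb, Tfe3 and Mitf belong to a family of transcription factors that bind E-box motifs, among them the CLEAR element found before the start of many lysosomal genes.

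The deposited lists held 55742 and 64939 peaks in WT and 51955 and 60884 peaks in cKO, and they covered 31.0 and 35.2 Mb in WT and 28.4 and 32.7 Mb in cKO. Peaks wider than 2 kb numbered 374 and 487 in WT versus 419 and 579 in cKO. Read depth was unknown. All 8 macrophage marker genes had a peak over a transcript start in every library, while none of the 4 B cell, 4 T cell or 4 stromal marker genes had one. Of 7 neutrophil marker genes, 1 to 2 had such a peak in each library, and 3 of 4 dendritic cell markers had one in every library. Of the 3 stem and progenitor markers, 1 had such a peak in each library. Covered bases summed over the macrophage markers took 947 and 909 ppm (millionths of the covered bases of a list) of the WT lists and 854 and 860 ppm of the cKO lists. The T cell markers took 71.1 and 62.5 ppm in WT against 28.3 and 34.7 ppm in cKO. The stromal markers took 87.4 and 124 ppm against 40.4 and 68.0 ppm, and the dendritic cell markers 192 and 175 ppm against 162 and 150 ppm. The B cell markers went the other way, at 71.0 and 65.9 ppm in WT against 85.7 and 73.1 ppm in cKO. The genotypes overlapped for the neutrophil markers (95.2 and 84.6 ppm against 77.1 and 95.2 ppm). They also overlapped for the stem and progenitor markers (73.8 and 79.2 ppm against 72.9 and 92.0 ppm). The part of these differences in the results was not tested. In such bulk samples, fewer cells of a type and less open chromatin per cell cannot be told apart. As a check of the labels, a weak region over an exon of H3f3a was called in both WT libraries, at percentiles 5.02 and 19.1 of the peak areas in the list, and in neither library labelled H3.3cKO. The H3f3b peaks went against a complete deletion of that gene. The region over its start was called in every library, at percentiles 23.7 and 34.3 for WT versus 28.7 and 42.5 for cKO, as was region 3 inside the gene (94.2 and 95.5 versus 86.97 and 81.4), and peaks covered 23.3% and 23.6% of its exon bases in WT versus 23.3% in each cKO library. All directions given here are therefore between the libraries labelled WT and those labelled H3.3cKO.

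The letters that the Tfeb family reads were present before several of these genes. RefSeq promoters (GRCm38.p6, the same build as mm10, from 250 bases before to 50 after the start) were at hand for 28 of the 35 genes, and not for Asah1, Atp6v0d2, Atp6v1b2, Atp6v1h, Ctsb, Ctsh and Npc1. The CLEAR core, searched as TCACGTGA on both strands, stood in the promoters of 6 of the 28 genes, compared with 1.12% of all 27025 symbols with a promoter of this length. Those symbols outnumber the 21755 protein-coding genes and were not restricted by gene type. These are the 6 genes, each shown as 30 bases from 5′ to 3′ on the gene's strand with the core in capitals, because the accessibility of these promoters is given further on:
Ctsa, upstream match (chr2:164833749-164833778, + strand): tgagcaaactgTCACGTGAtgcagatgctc
Ctsa, match at the start (chr2:164833766-164833795, + strand): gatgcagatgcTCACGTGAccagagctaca
Ctsd (chr7:142387908-142387937, - strand): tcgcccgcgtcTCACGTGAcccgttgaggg
Gla, distal match (chrX:134601215-134601244, - strand): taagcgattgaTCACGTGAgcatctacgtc
Gla, proximal match (chrX:134601182-134601211, - strand): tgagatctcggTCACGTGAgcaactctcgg
Mcoln1 (chr8:3500462-3500491, + strand): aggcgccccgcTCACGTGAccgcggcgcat
Atp6v0d1 (chr8:105566050-105566079, - strand): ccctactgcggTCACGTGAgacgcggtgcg
Atp6v1a (chr16:44139373-44139402, - strand): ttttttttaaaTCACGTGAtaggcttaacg
The shorter E-box CACGTG, which lies within the CLEAR core and is also its own reverse complement, stood in 11 of the 28 promoters and in 8.09% of all symbols. Lamp1, which codes for an abundant glycoprotein of the lysosomal membrane, held 4 E-boxes in the 100 bases before its RefSeq start, shown with the E-boxes in capitals:
Lamp1 (chr8:13159061-13159160, + strand): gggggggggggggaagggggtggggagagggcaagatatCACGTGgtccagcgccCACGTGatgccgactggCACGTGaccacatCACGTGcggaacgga
A match gives the letters alone and does not show binding.

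Peaks of the 4 lists that overlapped were merged into regions, and 215 of these regions lay in the windows of the 35 genes. Of the 215 regions, 143 were called in all 4 libraries, 12 were gained (a peak in each cKO library and none in WT), 13 were lost (the reverse) and 47 were called in another combination. The gained share was 5.58%, beside 3.25% of the 50382 regions in the windows of all protein-coding genes, and the lost share was 6.05%, beside 7.18%. At the level of genes, 7 of the 35 had at least 1 gained region, beside 9.64% of genes with a region, and 8 had at least 1 lost region, beside 19% of such genes. The 35 genes held 215 regions and the 15626 genes with a region held 50382. The shares of genes were not adjusted for the number of regions per gene. Npc2, which carries cholesterol out of the lysosome, had one of each. No region changed its call in this way at 21 genes, and 9 genes had every region called in all 4 libraries. With lists of equal length, all 12 gained regions and 10 of the 13 lost regions kept their call. With only peaks above the median area of their list, 1 of the 12 and 1 of the 13 overlapped a region so called. Where a library had to cover 50% of a merged region to count, 9 of the 12 and 13 of the 13 did.

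**Figure D1:**
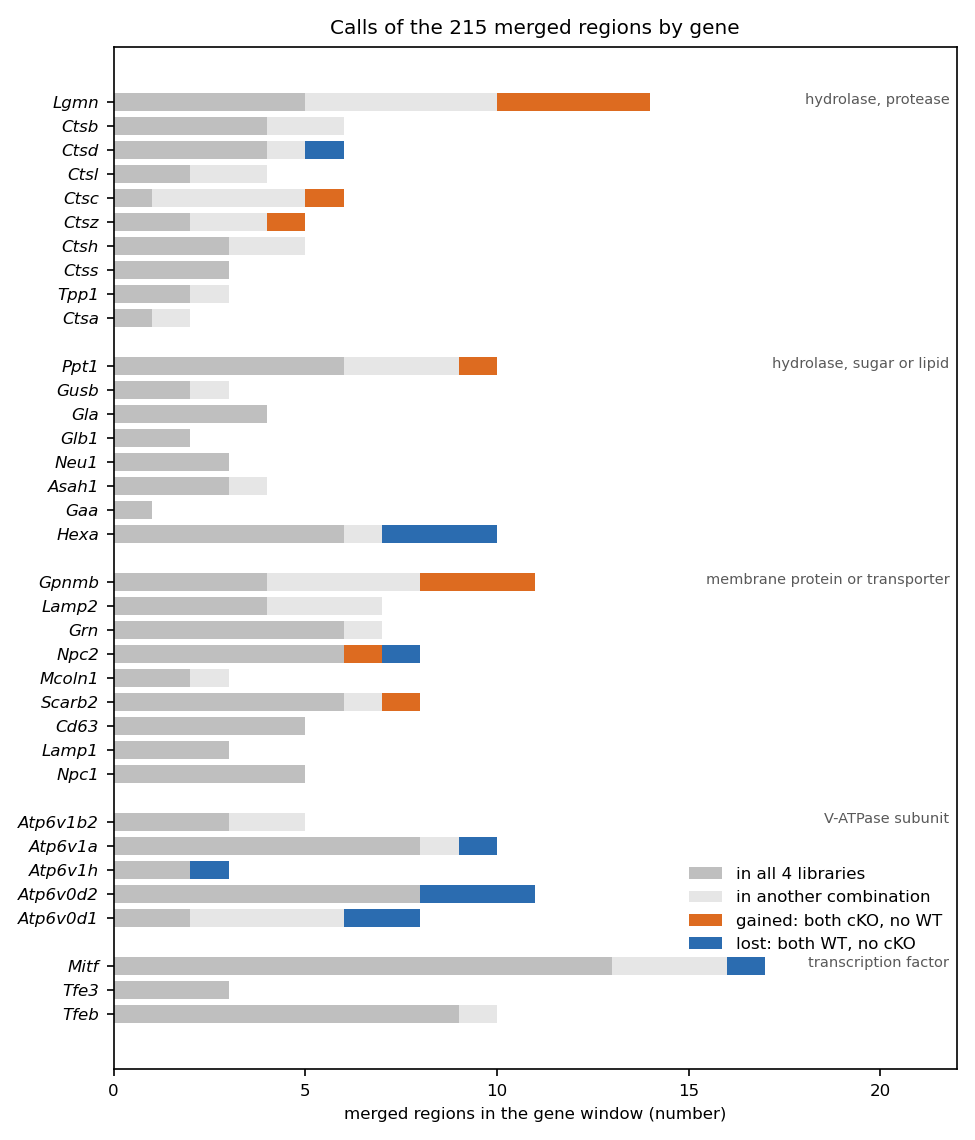
Each bar counts the merged regions in the window of one gene, split by the libraries in which they were called, with genes grouped by role. Gained regions (orange) stand at 7 genes, 4 of them at Lgmn and 3 at Gpnmb, and the V-ATPase subunits have 7 lost regions (blue) and none gained.

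By role, the proteases had 6 gained regions and 1 lost among 54, and the membrane, transport and accessory proteins had 5 gained and 1 lost among 57. The sugar and lipid hydrolases had 1 gained and 3 lost among 37, the 5 V-ATPase subunits had none gained and 7 lost among 37, and the 3 transcription factors had none gained and 1 lost among 30. These are counts of regions with no test between groups.

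Of the 35 genes, 15 were covered by more bases in cKO on average and 20 by fewer, before any adjustment for the length of the lists. Ranked by this difference over all 21755 genes, Atp6v1b2 (9.5 bp) stood at 4950 and Tfe3 (-0.5 bp) at 11490. Rises and falls over all genes were not counted, so that 15 and 20 do not set these genes apart. Ctsb, Ctsd, Gpnmb, Lgmn and Ppt1 together gained 37453.5 bp between the genotype means, and the other 30 genes together changed by -1852 bp. Summed over the 35 windows, peaks covered 124076 and 139808 bp in WT and 156226 and 178861 bp in cKO. As a share of all covered bases of a list, that is 4002 and 3971 ppm in WT and 5501 and 5464 ppm in cKO, and the genotypes did not overlap. The 5 largest positive differences in the log2 share were those of Gpnmb, Lgmn, Ctsb, Ctsd and Ppt1, and the 5 largest negative differences those of Ctsa, Atp6v0d1, Hexa, Gaa and Tpp1. The median log2 difference in share was 0.09 over the 35 genes and 0.01 over all 14756 genes tested. In a limma fit over those 14756 genes with Benjamini-Hochberg adjustment, 7 of the 35 genes had a higher share in cKO, beside 4.96% of all genes, and 2 had a lower share, beside 5.81%. The genes with a higher share were Ctsb, Ctsd, Lgmn, Ctsc, Ctsz, Ctsh and Ppt1, and those with a lower share were Ctsa and Hexa. With 1 library left out, a genotype holds 1 library, so that passing such a fit does not show that a call is robust. The log2 difference then ran from 1.27 to 1.43 for Ctsb, 1.15 to 1.41 for Ctsd and 1.28 to 1.71 for Lgmn. It ran from 0.93 to 1.01 for Ppt1, 0.54 to 0.66 for Ctsc, 0.46 to 0.49 for Ctsz and 0.33 to 0.58 for Ctsh. For Ctsa it ran from -1.13 to -0.80 and for Hexa from -0.56 to -0.41. A fit with the replicate number as a block, given in the closing section, ended all 9 calls. Apart from that fit, other settings ended the calls of Ctsc, Ctsd, Ctsh and Hexa, with values given for each gene further on.

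**Figure D2:**
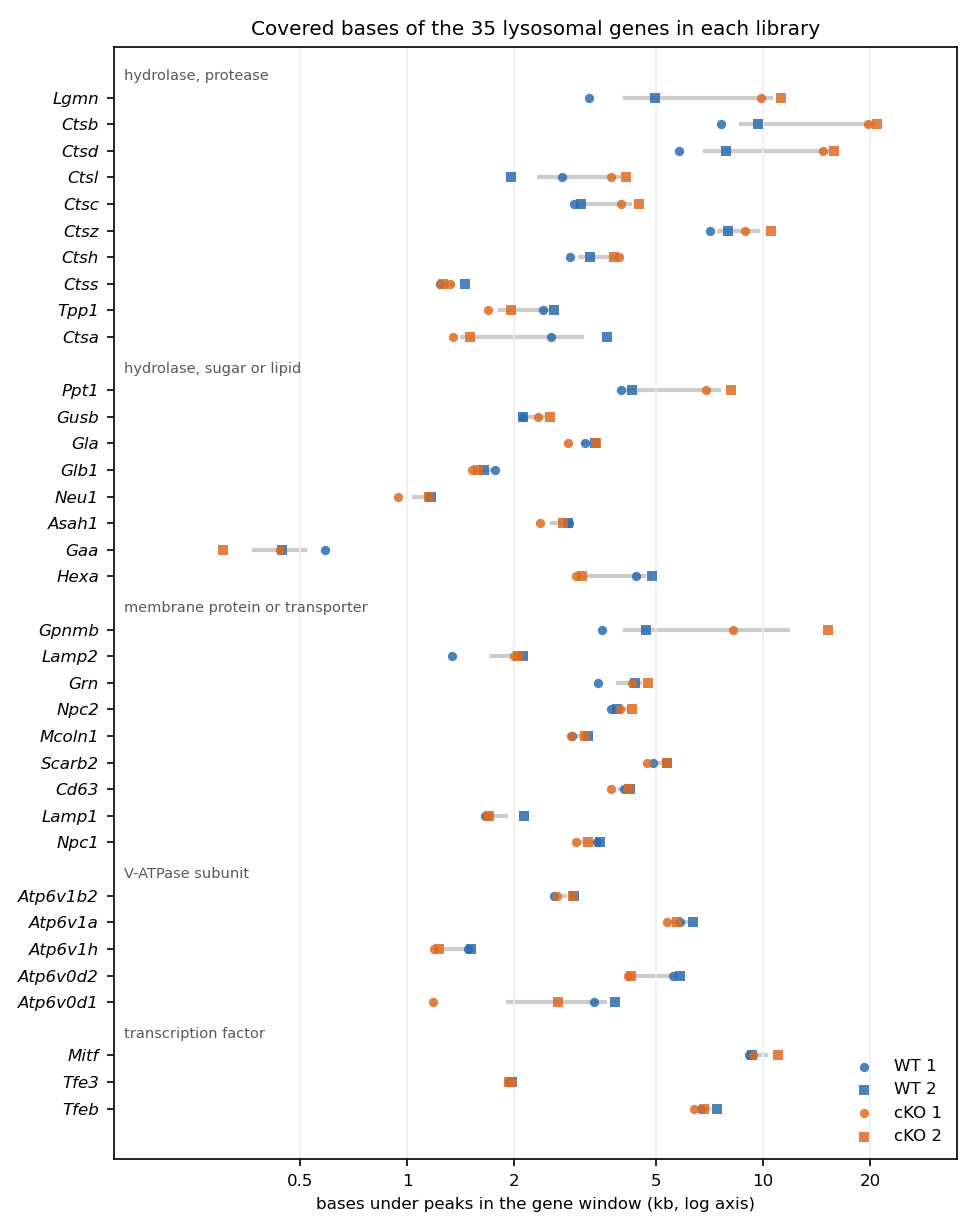
Each row gives the bases under peaks in the window of one gene in kb on a log axis, with circles for replicate 1, squares for replicate 2 and a grey line between the genotype means. The cKO points of Lgmn, Ctsb, Ctsd, Ppt1 and Gpnmb lie to the right of both WT points, while those of Ctsa and Hexa lie to the left.

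Cathepsin B (Ctsb), a cysteine protease, showed the largest rise in covered bases among the 35 genes and the 6th largest of all 21755 genes. Peaks covered 7628 and 9697 bp of its window in WT, and 19736 and 20872 bp in cKO. The log2 difference in share was 1.35 ± 0.07 (SE, adjusted p = 7.97e-08, limma). The cKO values were more than 10 kb above the higher WT value, and the replicates of a genotype differed by about 1 to 2 kb. The gene lies at chr14:63122462-63145923 on the forward strand. Peaks covered 26.3% and 31.6% of its body in WT and 78.3% and 83.4% in cKO. The added cover lay in the middle and the 3′ part of the gene. Region 3 (chr14:63133774-63139222) held 0 and 246 bp of peaks in WT and 5272 and 4987 bp in cKO, and region 4, over the 3′ end, held 1720 and 2438 bp in WT and 6801 and 7104 bp in cKO. By percentile, region 4 stood at 83.3 and 93.4 in WT versus 97.95 and 99.6 in cKO without passing (adjusted p = 0.375, limma). Intronic region 2 stood at 96.7 and 97.5 in WT versus 99.95 and 99.96 in cKO (adjusted p = 5.12e-08, limma). Its call was lost in another setting (adjusted p = 0.948, limma).

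Cathepsin D (Ctsd), the main aspartic protease of the lysosome, had 5808 and 7881 covered bp in WT, and 14690 and 15762 bp in cKO. The log2 difference in share was 1.28 ± 0.09 (SE, adjusted p = 6.30e-06, limma). In cKO a single peak of 10300 bp (replicate 1) or 12635 bp (replicate 2) ran through the body and past the end of the gene, whereas the widest WT peaks in the window measured 1810 and 2990 bp. Peaks covered 13.5% and 28.0% of the body (chr7:142375911-142388038, reverse strand) in WT and 76.6% and 87.4% in cKO. With the gene body alone as window the adjusted p was 0.087 at a log2 difference of 2.17. The wide region also holds the transcript starts of Gm49369 and Ifitm10, so the bases cannot be assigned to Ctsd alone. By percentile this region stood at 84.0 and 90.9 in WT versus 99.97 and 99.99 in cKO without passing (adjusted p = 0.190, limma). Upstream of the gene, region 2 was lost (33.8 and 23.8 in WT), and region 4 fell from percentiles 92.6 and 93.7 to 81.7 and 85.6.

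Legumain (Lgmn), the asparaginyl endopeptidase that processes cathepsins, had 3233 and 4954 covered bp in WT, and 9829 and 11196 bp in cKO, with a log2 difference in share of 1.498 ± 0.14 (SE, adjusted p = 0.000563, limma). It also had the most gained regions. Region 1 was centred at -4015 bp from the start, region 10 in an intron near the 3′ end, and regions 12 and 13 downstream of the gene. Region 10 reached percentiles of 31.6 and 64.2 in the cKO lists and region 13 reached 44.0 and 59.0, where the percentile is the rank of the peak's area within its list. Regions 1 and 12 were weaker, at 23.7 and 34.7 and at 22.2 and 34.8. Region 14, further downstream, was not a gained call, with 0 and 714 bp under peaks in WT and 2617 and 2625 bp in cKO. Between regions 10 and 12, region 11 rose from percentiles 57.0 and 59.7 in WT to 76.2 and 93.4 in cKO, a call that was lost with log2 areas (adjusted p = 0.0927), and region 6 in an intron rose from 69.7 and 70.7 to 82.3 and 83.7.

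Ppt1, the thioesterase that removes palmitate from proteins, was the only sugar or lipid hydrolase of the list with a higher share in the fit. Peaks covered 3988 and 4270 bp in WT and 6915 and 8127 bp in cKO, and the log2 difference was 0.97 ± 0.09 (SE, adjusted p = 1.06e-05, limma). Region 8 over the last exon was gained at percentiles 54.2 and 62.5. The neighbouring region 9, over the end of the gene, rose from percentiles 61.5 and 67.4 to 94.7 and 94.2. Intronic region 3 stood at 83.4 and 86.4 in WT versus 89.1 and 89.7 in cKO (adjusted p = 0.0171, limma), a call that was lost without WT replicate 1, cKO replicate 1 or cKO replicate 2 (adjusted p up to 0.295).

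Gpnmb, a transmembrane glycoprotein of macrophage lysosomes, had the largest log2 difference of the 35 genes but did not pass the threshold. Its window held 3526 and 4684 covered bp in WT and 8216 and 15233 bp in cKO, and the log2 difference was 1.57 ± 0.31 (SE, adjusted p = 0.118, limma). The cKO libraries differed almost as much from each other as from WT. The log2 difference was 1.91 without cKO replicate 1 and 1.23 without cKO replicate 2, and neither fit holds the spread between the cKO libraries. With lists of equal length the gene passed the threshold (adjusted p = 0.0445, limma). Regions 6, 7 and 8, which lie inside the gene body, were gained, and region 7 stood at percentiles 31.6 and 64.7 in the cKO lists. Region 1, centred at -5122 bp from the start, moved the other way, from percentiles 70.6 and 74.6 in WT to 16.5 and 27.3 in cKO, which was the largest fall of any shared region of the 35 genes (adjusted p = 3.15e-08, limma). Region 6 stood at 7.56 and 35.2 and region 8 at 21.05 and 63.1 in the cKO lists. Region 9 in an intron stood at 26.8 and 49.6 in WT versus 64.4 and 73.2 in cKO (adjusted p = 0.000274, limma), a call that was lost without WT replicate 1, cKO replicate 1 or cKO replicate 2 (adjusted p up to 0.494).

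**Figure D3:**
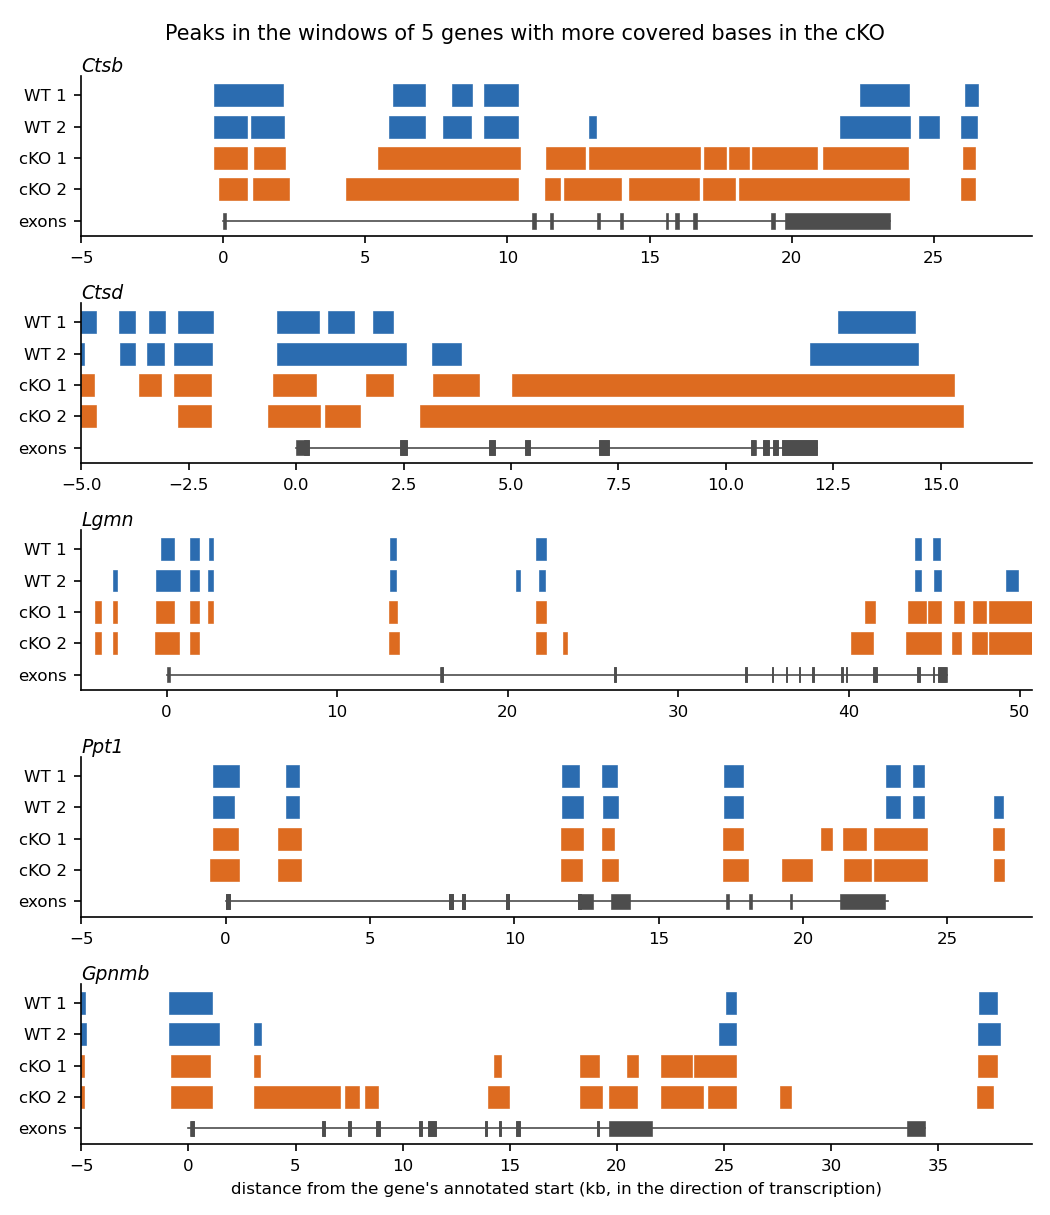
Blocks mark the deposited peaks of each library along the windows of 5 genes, with the distance from the annotated start in kb on the horizontal axis and the exons in grey. In Ctsb, Ctsd, Ppt1 and Gpnmb the cKO peaks (orange) fill stretches towards the 3′ end of the gene where the WT lists (blue) hold few peaks, and in Lgmn they extend past the gene's end.

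Smaller rises were seen at Ctsc, Ctsz and Ctsh. Ctsc, which activates granule serine proteases, had 2944 and 3080 covered bp in WT and 3985 and 4490 bp in cKO (log2 difference 0.60 ± 0.11 SE, adjusted p = 0.00264, limma), with a gained region in an intron at percentiles 20.95 and 17.6. The call of Ctsc was lost with peaks above the list median (0.53, adjusted p = 0.185) and with lists of equal length (0.65, adjusted p = 0.085). Ctsz, a carboxypeptidase, had 7095 and 7968 bp in WT and 8900 and 10492 bp in cKO (log2 difference 0.48 ± 0.08 SE, adjusted p = 0.00101, limma). Its gained region 3 stood at percentiles 32.8 and 61.1. Region 4, which lay over the 3′ end of the gene and past it, stood at 58.1 and 87.6 in WT versus 96.0 and 97.98 in cKO without passing (adjusted p = 0.460, limma). Ctsh had 2866 and 3263 bp in WT and 3935 and 3809 bp in cKO (log2 difference 0.45 ± 0.12 SE, adjusted p = 0.0225, limma), and the call was lost without WT replicate 1 (adjusted p = 0.0548), without cKO replicate 1 (0.177), with the gene body alone (0.0899) and with peaks above the list median (0.536). Its intronic region 2 stood at 71.03 and 76.9 in WT versus 81.9 and 85.9 in cKO (adjusted p = 0.00531, limma), a call that was lost without WT replicate 1 or cKO replicate 2 (adjusted p up to 0.182). Ctsl had 2716 and 1964 bp in WT and 3743 and 4117 bp in cKO and did not pass (adjusted p = 0.0593, limma). Ctss, a cathepsin of antigen presentation, had 1240 and 1455 bp in WT and 1319 and 1259 bp in cKO, and the genotypes overlapped.

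Exon and intron cover differed from gene to gene. In Ctsz, peaks covered 31.5% of the exon bases in each WT library and 72.5% and 85.7% in cKO, while intron cover was 30.3% and 30.7% in WT versus 34.7% and 43.4% in cKO. In Ppt1, exon cover was 14.2% and 17.8% in WT versus 48.1% and 57.9% in cKO, and intron cover 11.6% and 10.6% in WT versus 15.7% and 19.7% in cKO. In Ctsc the exon cover was 5.44% in all 4 libraries, and the intron cover 5.52% and 5.89% in WT versus 9.19% and 9.57% in cKO. In Lgmn, exon cover was 29.1% and 26.1% in WT versus 35.2% and 30.7% in cKO, and intron cover 5.26% and 6.48% in WT versus 9.14% and 12.2% in cKO. In Gpnmb, exon cover was 3.94% in each WT library versus 19.4% and 46.1% in cKO, and intron cover 4.62% and 7.97% in WT versus 18.5% and 38.3% in cKO. In Ctsb, WT exon cover was 24.2% and 38.9% and WT intron cover 26.9% and 29.8%. In Ctsd, WT exon cover was 14.2% and 27.8% and WT intron cover 13.4% and 28.0%. Both classes were mostly covered in cKO in these genes, with exons at 86.6% to 95.5% and introns at 74.5% to 86.3%. Between the genotype means, more percentage points were added in exons than in introns for Ctsz, Ppt1, Gpnmb, Ctsb and Ctsd. The same held by a small margin for Lgmn, and not for Ctsc. No test was run on these shares.

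Few genes of the genome showed such cover of the whole body. Among 14062 protein-coding genes of at least 10 kb, 6 had at least 50% of the body under peaks in both cKO libraries and in neither WT library, which is 0.0427%, and none (0%) showed the reverse. The 6 genes were Ctsb, Ctsd, Gm49369, Psap, Lgals3 and Apobec1, and Gm49369 overlaps Ctsd. Psap codes for prosaposin, the precursor of the saposins that help hydrolases degrade sphingolipids, and its body was covered at 19.3% and 23.7% in WT versus 76.0% and 90.1% in cKO. Lgals3, which codes for galectin-3, a lectin that gathers on damaged lysosomes, was covered at 16.2% and 18.8% in WT versus 69.1% and 66.9% in cKO. Apobec1, an RNA-editing deaminase, was covered at 30.7% and 37.5% in WT versus 81.4% and 89.9% in cKO. The limits of 10 kb and 50% were chosen after the values of Ctsb and Ctsd were seen, and the part of the larger number of wide peaks in the cKO lists was not tested.

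Cathepsin A (Ctsa), a carboxypeptidase that also protects Glb1 and Neu1 from degradation, had a lower share in cKO. Its window held 2543 and 3641 covered bp in WT and 1348 and 1504 bp in cKO, and the log2 difference in share was -0.96 ± 0.14 (SE, adjusted p = 0.000453, limma). The promoter peak shrank from 2543 and 2750 bp to 1348 and 1504 bp, and its percentile fell from 98.7 and 98.97 to 85.2 and 86.3. This region also holds the start of Neurl2. Tpp1, a tripeptidyl peptidase, had 2411 and 2588 bp in WT and 1689 and 1953 bp in cKO (log2 difference -0.34 ± 0.13 SE, adjusted p = 0.107, limma). Its promoter stood at percentiles 78.4 and 85.1 in WT versus 71.3 and 69.6 in cKO, a call that was lost without WT replicate 2.

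Among the sugar and lipid hydrolases, Hexa, the alpha subunit of beta-hexosaminidase, had the lower share. Its covered bases were 4392 and 4863 bp in WT and 2974 and 3104 bp in cKO, with a log2 difference of -0.49 ± 0.11 (SE, adjusted p = 0.00992, limma). With peaks above the list median it was -0.25 and the call was lost (adjusted p = 0.473). Regions 1, 5 and 7 were lost, at WT percentiles of 23.5 and 22.2, 8.46 and 32.4, and 13.9 and 28.4. Region 2, centred at -1681 bp from the start, fell from percentiles 82.6 and 83.2 to 66.1 and 69.8, and intronic region 6 fell from 90.4 and 93.4 to 81.7 and 85.3. Gaa, the acid alpha-glucosidase, had 590 and 446 bp in WT and 441 and 304 bp in cKO, and the genotypes overlapped as shares (adjusted p = 0.556, limma). Gla, Glb1, Gusb, Neu1 and Asah1 had log2 differences between -0.04 and 0.30 and did not pass the threshold. Neu1, the lysosomal sialidase, had an exonic region at 36.9 and 42.9 in WT versus 21.4 and 22.4 in cKO, which did not pass either (adjusted p = 0.222, limma).

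The membrane and accessory proteins other than Gpnmb did not pass in covered bases. Lamp1, Lamp2, Cd63, Scarb2, Npc1, Npc2, Mcoln1 and Grn had log2 differences between -0.04 and 0.37. Single regions within them still differed. Cd63, a lysosomal tetraspanin, fell at a region over the start of one of its transcripts, from percentiles 98.97 and 99.2 to 91.8 and 91.0. Downstream of Cd63, region 5 rose from 0.856 and 30.9 to 61.1 and 86.7, but this region holds the start of Rdh5. Region 4, between them, stood at 15.9 and 35.6 in WT versus 57.5 and 61.3 in cKO, a call that was lost without WT replicate 1 or cKO replicate 2 (adjusted p up to 0.140). Intronic region 2 stood at 88.5 and 89.3 in WT versus 82.6 and 82.8 in cKO, a call that was lost without WT replicate 1 or WT replicate 2 (adjusted p up to 0.114). Grn, which codes for progranulin, rose at region 4 in an intron, from 83.1 and 83.3 to 92.4 and 93.6. Region 3 of Mcoln1, the gene of a lysosomal calcium channel, rose from 86.4 and 88.6 to 96.5 and 96.8 and holds the start of Pnpla6. In Scarb2, the receptor that carries glucocerebrosidase to lysosomes, region 5 was gained at percentiles 29.9 and 34.0. Its region 6 stood at 59.4 and 61.8 in WT versus 7.94 and 38.8 in cKO (adjusted p = 0.000504, limma), a call that was lost with any 1 of WT replicate 1, WT replicate 2 and cKO replicate 1 left out (adjusted p up to 0.129). Npc2 gained region 6 at percentiles 25.0 and 36.6 and lost region 8, which stood at 14.9 and 37.2 in WT. Its intronic region 3 stood at 33.8 and 46.1 in WT versus 3.71 and 33.5 in cKO (adjusted p = 0.134, limma). In Npc1, which passes cholesterol on from Npc2, intronic region 3 stood at 89.2 and 88.7 in WT versus 84.7 and 82.6 in cKO (adjusted p = 0.00937, limma), a call that was lost without WT replicate 1, WT replicate 2 or cKO replicate 2 (adjusted p up to 0.184). In Lamp2, needed for the fusion of autophagosomes with lysosomes, region 4 stood at 33.9 and 41.9 in WT versus 50.4 and 55.5 in cKO and did not pass (adjusted p = 0.209, limma).

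Of the 37 regions of the 5 V-ATPase subunits, 7 were lost and 0 gained, beside 7.18% and 3.25% of the regions of all protein-coding genes, with no test between them. The lost regions belonged to Atp6v0d2, Atp6v0d1, Atp6v1a and Atp6v1h. Atp6v0d2, the form of the d subunit found in macrophages and osteoclasts, had 5587 and 5823 covered bp in WT and 4162 and 4262 bp in cKO (log2 difference -0.32 ± 0.10 SE, adjusted p = 0.0604, limma). Region 2 over its transcript start (chr4:19922423-19922763) stood at percentiles 45.0 and 45.8 in the WT lists and was absent from both cKO lists. It was the only region over a start that was lost among the 35 genes. Region 11 downstream, at 55.1 and 60.8 in WT, and region 8 in an intron, at 3.93 and 36.0, were also lost. Intronic region 5 stood at 72.1 and 75.3 in WT versus 58.2 and 61.2 in cKO (adjusted p = 0.0259, limma), and the call was lost without WT replicate 1, WT replicate 2 or cKO replicate 1 (adjusted p up to 0.310). Region 3 stood at 45.3 and 47.01 in WT versus 24.04 and 30.03 in cKO and did not pass (adjusted p = 0.156, limma). Atp6v0d1, the form of the same subunit made in most cells, had 3357 and 3837 bp in WT and 1183 and 2656 bp in cKO (log2 difference -0.89 ± 0.39 SE, adjusted p = 0.340, limma). The cKO libraries lay far apart, and with 1 library left out the log2 difference ranged from -1.36, without cKO replicate 2, to -0.42. Regions 5 and 8 of Atp6v0d1 were lost, at WT percentiles of 9.36 and 29.6, and of 25.6 and 42.2. Region 4 stood at 53.7 and 56.1 in WT versus 20.1 and 37.2 in cKO (adjusted p = 0.0217, limma), a call that was lost without WT replicate 1, WT replicate 2 or cKO replicate 1 (adjusted p up to 0.325). Atp6v1a lost region 8 (29.04 and 40.5 in WT) and Atp6v1h lost region 2 (10.3 and 7.04 in WT), while Atp6v1b2 had no gained or lost region, and its region 4 stood at 32.7 and 37.4 in WT versus 11.2 and 25.1 in cKO without passing (adjusted p = 0.270, limma). These 3 genes of the cytosolic V1 part had log2 differences between -0.19 and 0.12.

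None of the 3 transcription factor genes passed the threshold, with log2 differences of 0.02 for Tfeb, 0.11 for Tfe3 and 0.26 for Mitf (adjusted p = 0.913, 0.705 and 0.0501, limma). The shares of Mitf did not overlap, at 295 and 263 ppm in WT versus 330 and 336 ppm in cKO, whereas those of Tfeb and Tfe3 did. Differences lay in single regions. Tfeb region 6, in an intron 30111 bp after the start, fell from percentiles 81.2 and 82.3 in WT to 53.7 and 59.4 in cKO, and region 8 stood at 63.0 and 66.3 in WT versus 37.6 and 53.4 in cKO. The difference of region 6 lay between -28.1 and -22.3 points with any 1 library left out. It was -3.62 points (adjusted p = 0.428, limma) when the summed area of all peaks in the region was used. The call of region 8 was lost without WT replicate 1, WT replicate 2 or cKO replicate 1, with adjusted p up to 0.433. Region 7 stood at 91.7 and 93.1 in WT versus 87.1 and 88.8 in cKO, a call that was lost without WT replicate 2 (adjusted p = 0.0966). Region 10, downstream of Tfeb, stood at 6.84 and 5.62 in WT versus 18.6 and 30.1 in cKO and did not pass (adjusted p = 0.245, limma). Mitf, the largest gene of the list with 17 regions, fell at region 11 from 87.8 and 89.9 to 69.1 and 74.7 and rose at region 9 from 87.9 and 90.4 to 92.9 and 95.0. It lost the weak region 14, at 6.13 and 11.7 in WT. Its region 4 stood at 70.99 and 73.8 in WT versus 79.9 and 82.6 in cKO, a call that was lost whichever library was left out (adjusted p up to 0.262). Region 5 stood at 92.8 and 92.6 in WT versus 88.8 and 89.9 in cKO, a call that was lost without WT replicate 1, WT replicate 2 or cKO replicate 1 (adjusted p up to 0.128). Region 13 stood at 51.6 and 57.4 in WT versus 34.7 and 42.6 in cKO and did not pass (adjusted p = 0.169, limma). Tfe3 had 3 regions, all called in every library, and none passed the threshold.

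**Figure D4:**
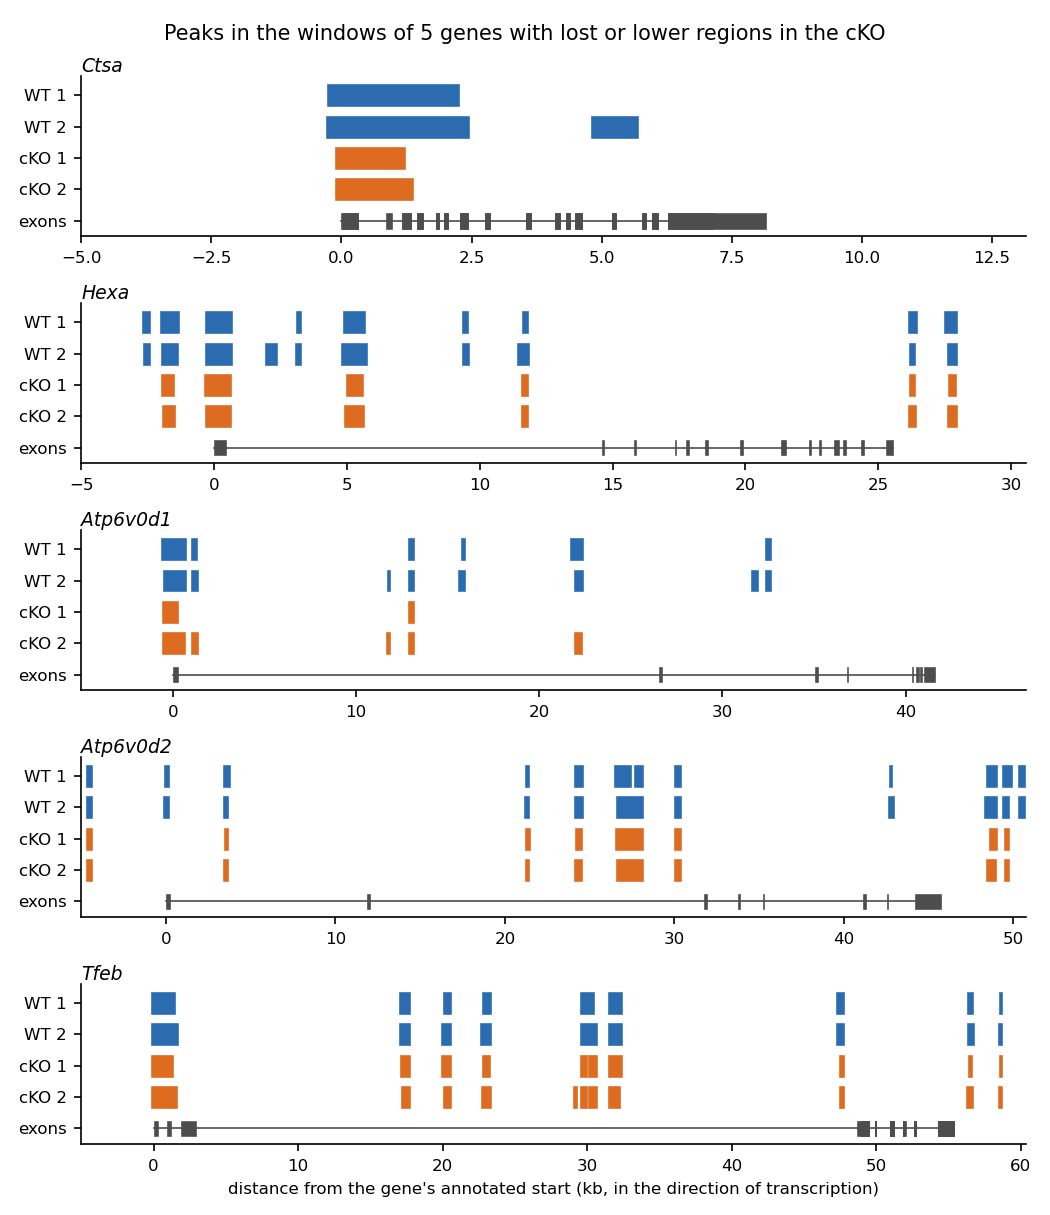
Blocks mark the deposited peaks of each library along the windows of 5 genes, drawn as distance from the annotated start in kb, with exons in grey. The Ctsa promoter peak is narrower in cKO (orange), Hexa, Atp6v0d1 and Atp6v0d2 lack peaks that both WT lists (blue) hold, and 9 of the 10 Tfeb regions are called in all 4 libraries.

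The regions over transcript starts were open in nearly all cases. All 35 genes had such a region, and 36 of these 37 regions were called in every library. The median difference of the start regions was -1.79 points. In the limma fit over all 44820 regions called in every library, 11 of the 36 start regions were lower and 2 were higher, beside 12.2% and 6.63% of the 10240 fitted regions that hold the start of any protein-coding gene. The 10240 regions were not matched for rank, and smaller shifts pass near the top of a list. The SE was 0.60 points for the Glb1 start (98.1 and 98.2 in WT) and 9.60 points for that of Gaa (41.6 and 38.8 in WT). With any 1 library left out, the difference ran from -13.7 to -12.5 points for Ctsa, -9.05 to -4.53 for Gla and -4.64 to -3.56 for Glb1. It ran from -8.12 to -7.33 for Cd63 and -15.3 to -11.4 for Gpnmb. The lower calls of Hexa (without WT replicate 1, WT replicate 2 or cKO replicate 1), Grn and Tfeb (without WT replicate 2 or cKO replicate 1) and Tpp1 (without WT replicate 2) were lost. Genes with more of the body under peaks in cKO differed at the start region. The Ctsd promoter fell from percentiles 93.4 and 98.6 to 88.6 and 88.6 (adjusted p = 1.12e-13, limma), a call that was lost without cKO replicate 2 (adjusted p = 0.072), with peaks above the list median (0.0511) and with log2 areas (0.183). The Gpnmb promoter fell from 93.3 and 97.2 to 80.9 and 82.9. The Ctsb promoter stood at 96.2 and 89.3 in WT versus 83.2 and 83.8 in cKO, and its call was lost without WT replicate 1 (adjusted p = 0.0757), with lists of equal length (0.131) and with log2 areas (0.270). The start regions of Lgmn, Ctsc and Ctsz, genes whose bodies were also covered more in cKO, differed by 0.60, 0.66 and -0.03 points and did not pass (adjusted p = 0.705, 0.293 and 0.971, limma), and that of Ppt1, described below, was higher. A peak's area grows with its width, so that splitting or narrowing of a peak lowers its rank. The promoters of Gla (91.8 and 96.2 to 84.96 and 89.5) and Glb1 (98.1 and 98.2 to 93.5 and 94.6), hydrolases of glycosphingolipids, also fell, and both regions hold the start of another gene. The Gla call was lost with peaks above the list median (adjusted p = 0.0671). The 2 higher start regions were those of Ppt1 (77.0 and 80.4 in WT, 84.5 and 87.0 in cKO) and Mitf (83.4 and 84.5 in WT, 88.0 and 89.4 in cKO). The Ppt1 call was lost without WT replicate 1, cKO replicate 1 or cKO replicate 2 (adjusted p up to 0.226), and the Mitf call was lost whichever library was left out (up to 0.193).

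The 6 promoters with a CLEAR core, printed above, did not move as one. Those of Ctsa, Ctsd and Gla were among the falls just given. For Mcoln1 the percentiles were 80.5 and 84.2 in WT versus 76.6 and 80.0 in cKO (adjusted p = 0.312), for Atp6v0d1 90.1 and 92.0 in WT versus 87.9 and 89.0 in cKO (adjusted p = 0.0971), and for Atp6v1a 99.2 and 99.4 in WT versus 99.7 and 99.7 in cKO (adjusted p = 0.448, limma for each). The Lamp1 promoter with its 4 E-boxes stood at 64.1 and 70.5 in WT versus 58.3 and 62.8 in cKO (adjusted p = 0.420).

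Over all 143 shared regions, 15 were higher in cKO in the limma fit, beside 6.86% of all regions fitted, and 25 were lower, beside 13.5%. Part of these calls, higher and lower, were lost when a library was left out, and how often this happened over all regions was not counted. The 143 regions and all regions fitted were not matched for rank. Shared regions with no overlap between genotypes and a difference of 15 points or more numbered 8 higher, beside 7.1% of all, and 11 lower, beside 12.4%. The median difference was -2.54 points over the 143 regions and -1.10 over all 44820 regions. Leaving out WT replicate 2 turned it to 0.27, leaving out cKO replicate 1 gave -0.19, and equal list lengths gave -0.40.

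**Figure D5:**
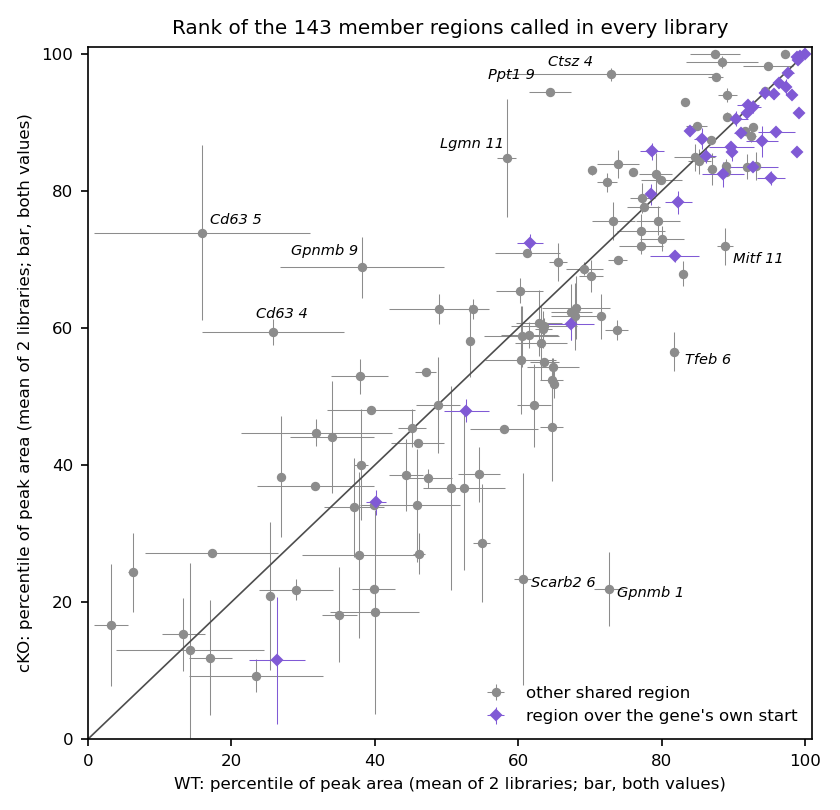
Each point is one of the 143 regions called in every library, with the mean WT percentile of the peak area on the horizontal axis, the mean cKO percentile on the vertical axis and bars that reach both library values. Many start regions (purple) lie at the upper right, while those of Lamp2 (region 3) and Ppt1 (region 1) lie above the diagonal and those of Cd63 (region 1), Gaa and Ctss lie lower on both axes. Other regions stand apart, with Gpnmb 1 and Scarb2 6 far below the diagonal and Cd63 5 and Ppt1 9 above it.

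The sequences at the summits of regions that carried these differences are given next, each as 201 bases around the summit of the highest-ranked peak, on the strand of the gene and with motif matches in capitals. They were chosen as gained, lost or strongly shifted regions of the genes described above:
Lgmn region 10, gained (chr12:102398649-102398849, - strand): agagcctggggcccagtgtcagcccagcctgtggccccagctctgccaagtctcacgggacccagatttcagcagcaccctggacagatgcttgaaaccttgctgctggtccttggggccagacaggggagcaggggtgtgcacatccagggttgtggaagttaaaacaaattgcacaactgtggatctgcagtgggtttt
Lgmn region 13, gained (chr12:102391797-102391997, - strand): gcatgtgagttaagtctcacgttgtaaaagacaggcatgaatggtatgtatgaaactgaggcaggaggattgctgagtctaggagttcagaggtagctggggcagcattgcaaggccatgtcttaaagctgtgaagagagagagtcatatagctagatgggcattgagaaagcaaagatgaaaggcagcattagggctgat
Gpnmb region 7, gained (chr6:49055043-49055243, + strand): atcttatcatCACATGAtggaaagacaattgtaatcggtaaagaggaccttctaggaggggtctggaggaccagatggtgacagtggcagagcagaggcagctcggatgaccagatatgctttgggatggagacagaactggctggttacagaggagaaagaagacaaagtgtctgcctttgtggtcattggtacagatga
Ppt1 region 9, higher (chr4:122860129-122860329, + strand): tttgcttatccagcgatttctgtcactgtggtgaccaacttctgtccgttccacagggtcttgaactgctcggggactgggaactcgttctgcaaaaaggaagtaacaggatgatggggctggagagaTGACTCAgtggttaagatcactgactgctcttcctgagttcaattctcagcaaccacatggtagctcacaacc
Gpnmb region 1, lower (chr6:49031318-49031518, + strand): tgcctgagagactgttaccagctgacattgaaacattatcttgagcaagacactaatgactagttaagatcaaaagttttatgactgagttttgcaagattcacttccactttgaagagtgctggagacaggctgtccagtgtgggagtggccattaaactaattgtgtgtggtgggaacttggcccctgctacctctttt
Tfeb region 6, lower (chr17:47767122-47767322, + strand): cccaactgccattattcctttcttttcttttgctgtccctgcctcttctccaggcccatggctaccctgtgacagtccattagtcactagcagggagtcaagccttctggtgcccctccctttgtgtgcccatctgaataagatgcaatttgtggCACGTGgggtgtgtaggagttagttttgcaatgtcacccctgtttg
Hexa region 1, lost (chr9:59536942-59537142, + strand): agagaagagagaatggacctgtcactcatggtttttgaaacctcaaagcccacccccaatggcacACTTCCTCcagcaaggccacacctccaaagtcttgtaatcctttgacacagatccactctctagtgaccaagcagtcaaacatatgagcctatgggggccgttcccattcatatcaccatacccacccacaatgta
Atp6v0d2 region 11, lost (chr4:19872056-19872256, - strand): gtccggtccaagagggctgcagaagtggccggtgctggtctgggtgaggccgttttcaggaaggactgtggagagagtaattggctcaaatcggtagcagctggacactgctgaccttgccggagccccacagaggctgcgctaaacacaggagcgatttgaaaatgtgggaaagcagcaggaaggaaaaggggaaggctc
Atp6v0d1 region 5, lost (chr8:105550164-105550364, - strand): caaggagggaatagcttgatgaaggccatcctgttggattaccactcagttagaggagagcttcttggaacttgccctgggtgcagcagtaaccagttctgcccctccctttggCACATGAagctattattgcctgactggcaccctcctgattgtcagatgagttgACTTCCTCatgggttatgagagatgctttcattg
The motifs searched on both strands were the CLEAR core, the E-box, the M-box TCATGTG, the AP-1 motif TGANTCA and the PU.1 motif GAGGAAGT. PU.1 is the lineage factor of macrophages, and AP-1 factors act in stress and inflammation. None of the 12 gained and none of the 13 lost summit windows held an E-box, which stood in 4.30% of all 2653 gained and 3.06% of all 5164 lost windows. The M-box stood in 2 of the 12 gained windows (Lgmn region 1 and Gpnmb region 7) and in 1 of the 13 lost windows (Atp6v0d1 region 5), with 5.47% and 6.47% over all gained and lost windows. An AP-1 motif stood in 1 of the 12 gained windows (Npc2 region 6), compared with 27.0% of all gained windows, and in 1 of the 13 lost windows (Atp6v0d2 region 2), compared with 9.99%. A PU.1 motif stood in 1 of the 12 gained windows (Lgmn region 1), compared with 8.97%, and in 3 of the 13 lost windows (Hexa region 1, Atp6v0d1 region 5 and Mitf region 14), compared with 12.8% of all lost windows. Among the shifted regions shown, Tfeb region 6 held an E-box and Ppt1 region 9 an AP-1 motif.

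Other genes of the pathway were read from further lists. The 17 other V-ATPase genes had 54 regions, with 1 gained (downstream of Atp6v1g1) and 1 lost (downstream of Atp6v0c), and 1 of the 15 genes fitted had a higher share and 0 a lower one, beside 4.96% and 5.81% of all genes. This was Atp6v0a1, an a subunit of the membrane part, with 1937 and 1825 covered bp in WT and 2382 and 2811 bp in cKO (log2 difference 0.57 ± 0.13 SE, adjusted p = 0.0127, limma). The 29 other lysosomal genes had 144 regions, and of the 28 genes fitted, 1 was higher and 2 were lower, beside the same 4.96% and 5.81%. Psap rose from 8582 and 9986 bp to 23114 and 26430 bp (log2 difference 1.53 ± 0.06 SE, adjusted p = 2.41e-09, limma). Arsb, a sulfatase, fell from 5839 and 6316 bp to 3360 and 4446 bp (log2 difference -0.53 ± 0.10 SE, adjusted p = 0.00391, limma). Igf2r, the receptor that sorts hydrolases to lysosomes, fell from 2735 and 2964 bp to 1684 and 1810 bp (log2 difference -0.58 ± 0.13 SE, adjusted p = 0.00815, limma). The median log2 difference was 0.14 over the other V-ATPase genes and 0.03 over the other lysosomal genes.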

How the data were processed

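ATAC-seq libraries of WT and H3.3cKO BMDMs, 2 per genotype, were analysed from the deposited peak lists. Group and replicate number came from the sample titles and labels, and whether replicates came from separate mice was not stated, so that p-values measure the spread between these libraries. The authors aligned paired reads to mm10 with Bowtie2 (2.5.1 in the submitters' processing notes) and called peaks in each library with Genrich at default settings. Read filters, removal of duplicates and a shift of read ends for the transposase were not given in the sources used here. Each deposited list holds a signal, the area under the significance curve, which was the measure used here. Its lowest value was just above 200 in every list, so that a site slightly below the caller's limit is missing from a list and a lost or gained call can rest on a small difference. The lists also hold a −log10 p-value and a score as deposited by the authors, neither of which entered a test. The study compared genotypes with DiffBind, which needs reads, so that method was not used here. Depth was unknown, so that no counting interval could be given.

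Peaks overlapping by at least 1 bp were merged into regions (pandas 2.3.3, numpy 2.4.6). A region's value in a library was the percentile of its highest peak's area within the list. Regions were assigned to the GENCODE M21 gene body with 5 kb on each side and numbered in the direction of transcription. Covered bases were expressed as ppm of the list's covered bases, which sets lists of different length on one scale. Percentiles of the 44820 regions called in all libraries, and log2(ppm + 1) of 14756 protein-coding genes with a mean of at least 200 covered bp, were each fitted by genotype with limma 3.58.1 (R 4.3.3, trend and robust), with Benjamini-Hochberg adjustment and a threshold of 0.05. With 2 residual degrees of freedom, the spread was borrowed largely from all other features. Tested on simulated data, the fits recovered larger shifts more often and made false calls above the nominal share, so that adjusted p-values may be too small. The fold changes are on the log2(ppm + 1) scale. The 35 genes and the other lists were chosen with earlier results of these data known, so that no test was made over a list. Named genes were those with a gained or lost region, past a threshold, with a shift of at least 15 points or with the 5 largest rises or falls, and the start region of every gene was examined. Sequences came from the RefSeq genome GRCm38.p6. Where a library was left out, the remaining library of that genotype was taken to vary like the others. A call kept in such a fit therefore does not show that it is robust. Single gained and lost regions of the other lysosomal genes are not reported here. Alternatives are given in the closing section.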

Additional observations from a re-analysis of the deposited data

How the results depend on the processing

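The sum of covered bases over the 35 genes, not adjusted for the covered bases of a list, was higher in cKO by 35602 bp. Ctsb, Ctsd, Gpnmb, Lgmn and Ppt1 made up 37453.5 bp of it and the other 30 genes -1852 bp, a split not made on the share. The excess stayed between 31211 and 38350 bp with only peaks above the median area of their list, lists of equal length, the gene body alone or 10 kb on each side. It stayed between 24284 and 46919 bp when a library was left out. With only peaks above the list median, 9 regions were gained and 6 lost, and 1 of each kind overlapped a region so called above. Lists of equal length gave 19 gained and 10 lost regions and a median percentile difference of -0.40. Gained and lost calls over all regions were not counted under these settings or with a library left out. The changed counts therefore cannot be set against the other genes. Leaving out a library gave 14 to 31 gained and 13 to 22 lost regions, since a call then needs fewer libraries, and median percentile differences from -3.37 to 0.27, the last without WT replicate 2. Of the members' shared regions, lists of equal length called 26 higher and 30 lower (7737 and 7782 of 41715 overall), the quantile-normalized log2 area called 29 higher and 28 lower (8542 and 8734 of 44820), and leaving out a library called 8 to 18 higher and 13 to 27 lower (1249 to 2810 and 1797 to 6838 overall), compared with 15 and 25 (3076 and 6033) as reported. The cause of these differences was not tested. In the gene fit, leaving out a library gave 8 to 9 genes higher and 2 to 3 lower, and the other alternatives apart from the replicate block gave 5 to 8 higher and 2 to 3 lower. Over all genes the counts were 732 higher and 858 lower as reported, 392 and 454 with peaks above the list median, 416 and 693 with the gene body alone, and up to 1471 lower with a library left out (cKO replicate 2).

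Replicate numbers were entered as a block in another fit. The labels name no shared batch, and deviations of same-numbered libraries correlated at 0.295 over regions and 0.255 over genes, which with 2 numbers does not establish a pairing. In limma with the replicate block, 0 genes were higher and 0 lower among the members and over all 14756 genes. At an unadjusted p under 0.05, 13 members were higher and 4 lower (1572 and 1774 genes overall). The adjusted p of the 9 called genes lay between 0.128 and 0.160. The region fit with the block gave 20 members higher and 37 lower (5687 and 10176 overall). No log2 or percentile difference of a named gene or region changed sign in the alternatives run. Over all alternatives, 329 comparisons of named regions stayed on their side of the threshold, 72 were no longer past it and 15 were newly past it, and for named genes these numbers were 106, 17 and 6.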
